A study of Mus musculus with 21 samples.

Results

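The genes described here are 40 mouse genes of the unfolded protein response: the sensors and transcription factors of endoplasmic reticulum (ER) stress, the chaperones and folding enzymes of the ER lumen, and the machinery of ER-associated degradation (ERAD). They were chosen by name from a list of 41 symbols, in which Vimp and Selenos are an older and a current name of the same gene. All 40 were found among the 55414 gene identifiers of the count table, and all 40 passed the filter on low counts, so that each was among the 13070 genes tested. The data were 21 bulk RNA-seq libraries of Paneth cells, the defensin-secreting cells at the base of small intestinal crypts, sorted by FACS from C57BL/6J mice. For 7 weeks the drinking water was either Milli-Q, a purified water, or, as the labels state the dose, held 200 mM ZnSO4. The SPF (specific pathogen free) mice gave 3 libraries on each water, SPF mice that also received broad-spectrum antibiotics over the final 3 weeks gave 4 on each water, and germ-free mice gave 3 on Milli-Q and 4 on zinc. The antibiotics groups are thus SPF mice with a depleted and not an absent microbiota, and neither age nor sex is given per library.

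The ER is where secreted proteins are folded, cross-linked by disulfide bonds and checked. When unfolded proteins build up, the sensors IRE1 (encoded by Ern1 and, in gut epithelium, also by Ern2), PERK (Eif2ak3) and ATF6 are released or activated, and the transcription factors XBP1 and ATF6 then turn on chaperone and ERAD genes, while ERAD pulls misfolded proteins out of the ER for destruction by the proteasome. Professional secretory cells run this programme at a high basal level, and Paneth cells are known to depend on Xbp1 in mice. IRE1 acts by splicing the Xbp1 mRNA, which counts per gene cannot show: an Xbp1 value below is the sum of its spliced and unspliced forms.

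Many genes of this programme carry an ER stress response element near their start. The stretches of the members that do are shown first, because they mark which members share this sequence feature. The members were chosen by name as genes of this programme, so the share of them with an element is not independent of that choice. Searched were the 250 bases before the start of the canonical transcript in GRCm39, on both strands, for ERSE (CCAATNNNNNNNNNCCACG) and ERSE-II (ATTGGNCCACG), which did not overlap each other in any member. Each line gives 30 bases read 5′ to 3′ on the strand of the gene, with the match in capitals. A match that begins with CGTGG lies on the opposite strand.

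Hspa5 ERSE: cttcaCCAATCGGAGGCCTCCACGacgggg
Hsp90b1 ERSE, distal: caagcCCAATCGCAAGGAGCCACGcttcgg
Hsp90b1 ERSE, proximal: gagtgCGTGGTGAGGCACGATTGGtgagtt
Calr ERSE: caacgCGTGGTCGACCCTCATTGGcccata
Canx ERSE: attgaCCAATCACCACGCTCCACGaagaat
Pdia6 ERSE: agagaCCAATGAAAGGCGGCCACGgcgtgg
Ero1b ERSE: ggcctCGTGGTCCCGCCTCATTGGccgccg
Dnajc3 ERSE: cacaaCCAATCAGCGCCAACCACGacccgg
Creld2 ERSE: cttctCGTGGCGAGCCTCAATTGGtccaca
Syvn1 ERSE: cgcaaCCAATCGGCGGTAGCCACGggaaca
Derl3 ERSE: tctacCGTGGGACTTCCCCATTGGctagcc
Hyou1 ERSE-II, distal: gaaccgtgaCGTGGCCCAATccgcagccag
Hyou1 ERSE-II, proximal: cagaggggcgggtcttctaCGTGGACCAAT
Manf ERSE-II: tcctgggcaCGTGGACCAATgaggatgcag
Herpud1 ERSE-II: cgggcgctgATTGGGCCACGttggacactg

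The stretches of genes on the plus strand are chr2:34662032-34662061 for Hspa5, chr12:17316487-17316516 for Pdia6, chr13:12580558-12580587 for Ero1b, chr14:119175234-119175263 for Dnajc3, chr15:88703718-88703747 for Creld2, chr19:6096557-6096586 for Syvn1 and chr10:75729071-75729100 for Derl3. For the same strand, those of Hyou1 are chr9:44290652-44290681 and chr9:44290743-44290772, and that of Herpud1 is chr8:95112996-95113025. The genes on the minus strand are Hsp90b1 (chr10:86541496-86541525 and chr10:86541391-86541420), Calr (chr8:85573698-85573727), Canx (chr11:50216621-50216650) and Manf (chr9:106769228-106769257). ERSE was found before 10 of the 40 members (25%) and before 16 of 11972 genes with a searched window (0.134%). ERSE-II was found before 3 members (7.5%) and 7 of all genes (0.0585%). Together 13 members (32.5%) and 23 of all genes (0.192%) held either one. None of 64 other genes of ER folding and degradation, listed alongside, held one. The ends of the matches farther from the start lay between 11 and 162 bases before it.

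The UPRE core TGACGTGG, a binding sequence of XBP1 and ATF6, stood before 1 member (2.5%) and 78 of all genes (0.652%). This was Hyou1, where it overlaps the distal ERSE-II. The half-element CCACG, which every ERSE and ERSE-II contains, stood before 28 members (70%) and 4684 of all genes (39.1%). A pair of whole windows shows what a match and its absence look like, for Calr, which encodes the lectin chaperone calreticulin, and for Sdf2l1, a co-chaperone of BiP with the largest rise of any member in the comparison of zinc after antibiotics. The Calr window (chr8:85573668-85573917, minus strand) holds its ERSE in capitals. The Sdf2l1 window (chr16:16950253-16950502, minus strand) holds neither element and is printed without capitals, although it holds the half-element 3 times.

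Calr window: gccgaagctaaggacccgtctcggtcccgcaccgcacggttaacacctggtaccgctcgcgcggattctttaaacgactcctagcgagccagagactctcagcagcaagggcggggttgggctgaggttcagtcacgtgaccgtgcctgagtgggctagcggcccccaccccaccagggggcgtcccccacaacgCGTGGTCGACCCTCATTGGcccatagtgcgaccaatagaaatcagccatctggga
Sdf2l1 window: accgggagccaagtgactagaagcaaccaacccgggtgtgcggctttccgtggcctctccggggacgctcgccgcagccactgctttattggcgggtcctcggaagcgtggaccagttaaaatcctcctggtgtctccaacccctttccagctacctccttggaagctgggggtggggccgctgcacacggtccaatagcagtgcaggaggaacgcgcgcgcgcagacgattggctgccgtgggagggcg

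These matches are letters in a window and not measured binding sites, and the absence of a match says only that these letters were not in the 250 bases searched. Where each match lies is shown in the map of the 13 windows.

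**Figure D1:**
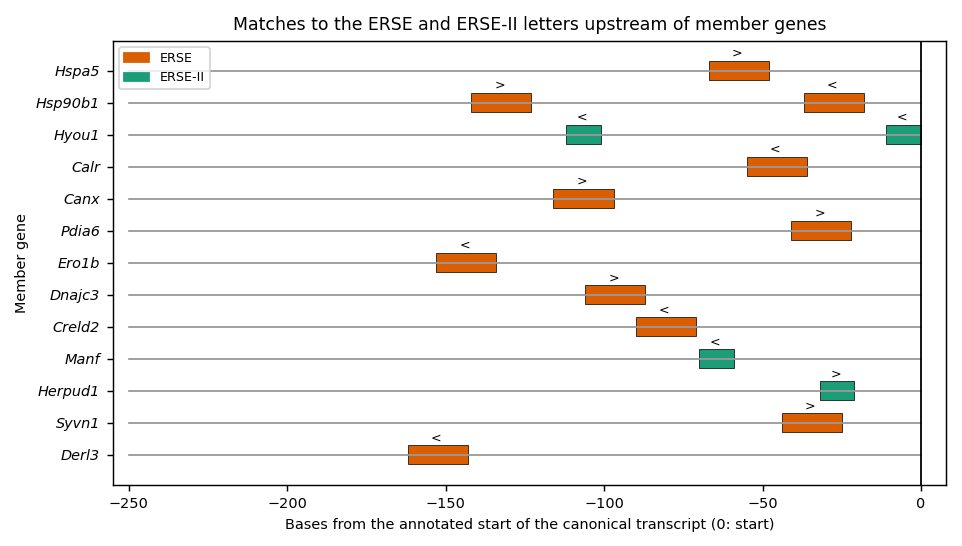
Position of each ERSE (orange) and ERSE-II (green) match in the 250 bases before the start of 13 member genes, in bases from the annotated start; an arrowhead to the right marks a match on the strand of the gene and one to the left a match on the opposite strand. Matches lie between 162 bases before the start (Derl3) and the start itself (Hyou1).

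The libraries held between 9888174 and 16896714 counts, which left every member with at least 21 counts in every library (Derl3 being the lowest). Values are CPM, a gene's count relative to the scaled total of its library, with totals scaled by TMM factors unless stated otherwise. The secretory load of a library was taken as its share of counts on 28 protein-coding Defa genes, which encode the α-defensins. How reads shared between Defa genes were counted is not stated, so the absolute size of this share is uncertain. The paper reports a larger Defa share in a typical experiment, in a length-scaled measure from another program. This share was 31.2, 24.1 and 33.5% in SPF Milli-Q, 36.4, 33.8 and 35.0% in SPF zinc, 25.1, 32.8, 31.8 and 27.3% in antibiotics Milli-Q, and 28.7, 26.4, 29.9 and 25.3% in antibiotics zinc. It was 44.0, 44.5 and 42.8% in germ-free Milli-Q and 41.6, 41.6, 39.3 and 42.0% in germ-free zinc. All 7 germ-free libraries were above the other 14. The TMM factors followed this split, with 0.5224 to 0.8338 in germ-free libraries and 0.9963 to 1.489 elsewhere.

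Markers of 9 cell types were summed in every library as a check of the sort. The 9 Paneth markers found, such as Lyz1 and Itln1, held 13.1 to 22.8% of counts. The 8 goblet cell markers held 0.942 to 1.58%, the 8 stem and cycling markers 0.149 to 0.601%, and the 12 enterocyte markers 0.0491 to 0.217%. Plasma cell markers held at most 0.0082%, with Tnfrsf17 at 0 in every library, and stromal markers at most 0.000381%. Tuft cell markers held 0.00618 to 0.0402%, enteroendocrine markers 0.00366 to 0.0279% and markers of other immune cells 0.00123 to 0.0394%. SPF zinc replicate 1 stood apart by its 6228 counts of Xist, the transcript of the inactive X chromosome. Any other library had at most 34. The counts of calls in comparisons of 2 groups that include SPF zinc are therefore also given without SPF zinc replicate 1. The labels call the libraries of a group replicates and do not say whether each came from 1 animal. The paper describes its samples, with this series among them, as cells of individual mice. A legend in its supplement speaks of sorted cells that were pooled. The p-values measure the spread between libraries. In sorted bulk RNA fewer cells of a type and less RNA per cell cannot be told apart.

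As a share of all counts, the 40 members together held 0.484 to 1.07%. Of the counts outside the Defa genes they held 0.85 to 1.02% in the germ-free libraries and 1.06 to 1.5% in the other 14, so these ranges did not overlap. The members gave 12.0 ± 1.05 counts per 1000 Defa counts in germ-free Milli-Q (SD, n = 3) and 13.5 ± 1.11 in germ-free zinc (SD, n = 4). They gave 29.5 ± 10.7 in SPF Milli-Q (SD, n = 3), 21.2 ± 2.9 in SPF zinc (SD, n = 3), 28.8 ± 8.29 in antibiotics Milli-Q (SD, n = 4) and 35.1 ± 4.41 in antibiotics zinc (SD, n = 4). On the TMM scale, which sets the bulk of all genes equal between libraries, the germ-free libraries were not low. Their summed CPM was 6758 to 9505, inside the range of 5650 to 9864 of the others. The order of the germ-free and other libraries in the sum of these genes therefore depended on whether it was read against all other transcripts or against the typical gene.

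**Figure D2:**
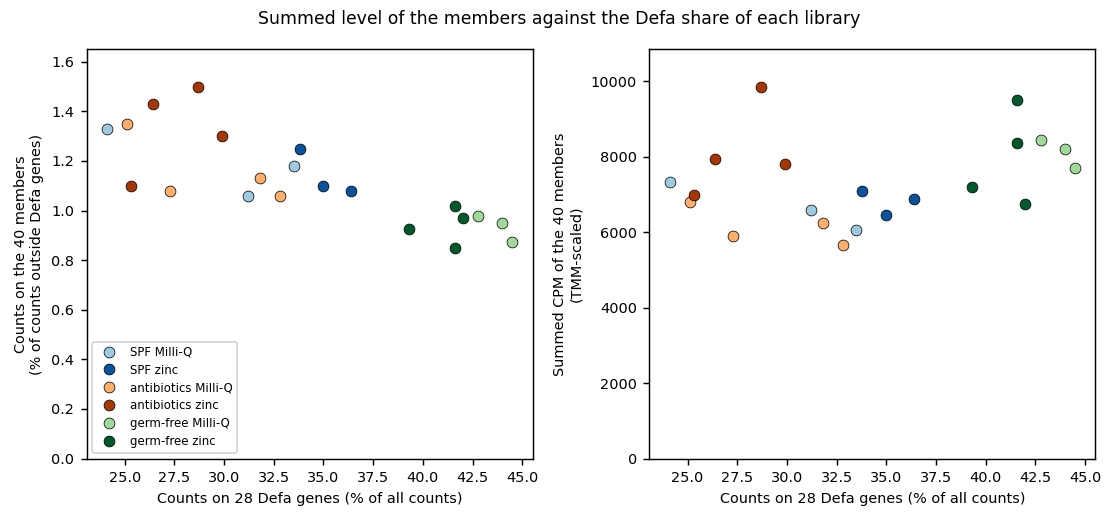
Counts on the 40 members as a percentage of counts outside the Defa genes (left) and as summed TMM-scaled CPM (right) against the percentage of all counts on 28 Defa genes, 1 point per library. The 7 germ-free libraries (green) lie at 39.3% or more on the horizontal axis, below all others on the left scale (0.85 to 1.02%) and among them on the right scale (6758 to 9505).

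Within groups, no member passed the test of a relation to the Defa share. A slope per SD of the logit of the share, fitted with a term for each group, passed the threshold for 0 of 40 members and for 8 of 13070 genes (0.0612%) in edgeR's quasi-likelihood test with Benjamini-Hochberg adjustment. At an unadjusted p under 0.05 there were 3 members and 909 genes, and DESeq2 also called 0 members. The median slope of the members was -0.10 on the log2 scale. All 5 chaperones of the Hsp70, Hsp90 and lectin group had slopes under 0, between -0.27 and -0.14, and 9 of 12 ERAD and ER membrane genes had slopes above 0. The steepest was that of Dnajc10, a disulfide reductase with a J domain, with -0.39 ± 0.14 (SE, adjusted p = 0.525). Without the group terms, 14 members passed, 10 upwards and 4 downwards (10.9% and 8.65% of all genes), in a fit where the 7 germ-free libraries make up the high end of the share.

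Per length of transcript, P4hb was the most abundant member in the mean of the 6 groups with 606 CPM per kb. It encodes the classical protein disulfide isomerase. Ppib, the ER prolyl isomerase cyclophilin B, followed with 275 CPM per kb, and Calr with 224.3. The thioredoxin-like Txndc5 (124.3), Pdia3 (115.8), Hspa5 (110.7), Hsp90b1 (109.8) and Xbp1 (100.4) formed the next tier. Ern2 stood at 29.2 CPM per kb and its paralogue Ern1 at 9.47, so the epithelial form of IRE1 was the more abundant mRNA on this scale. The lowest levels per kb were those of Atf6 (5.04), Derl3 (4.42), Wfs1 (3.97) and Ero1a (3.41).

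The group with the highest mean was at most 3.46 times the lowest for any member. That ratio belonged to Derl3, and the next were 2.58 for both Dnajb9 and Herpud1. The flattest members were Atf6b and Derl1, with 1.27 each. The level of each member in each library is drawn as a heat map, in which the antibiotics zinc libraries are high across the chaperones and isomerases and the germ-free libraries across several ERAD genes.

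**Figure D3:**
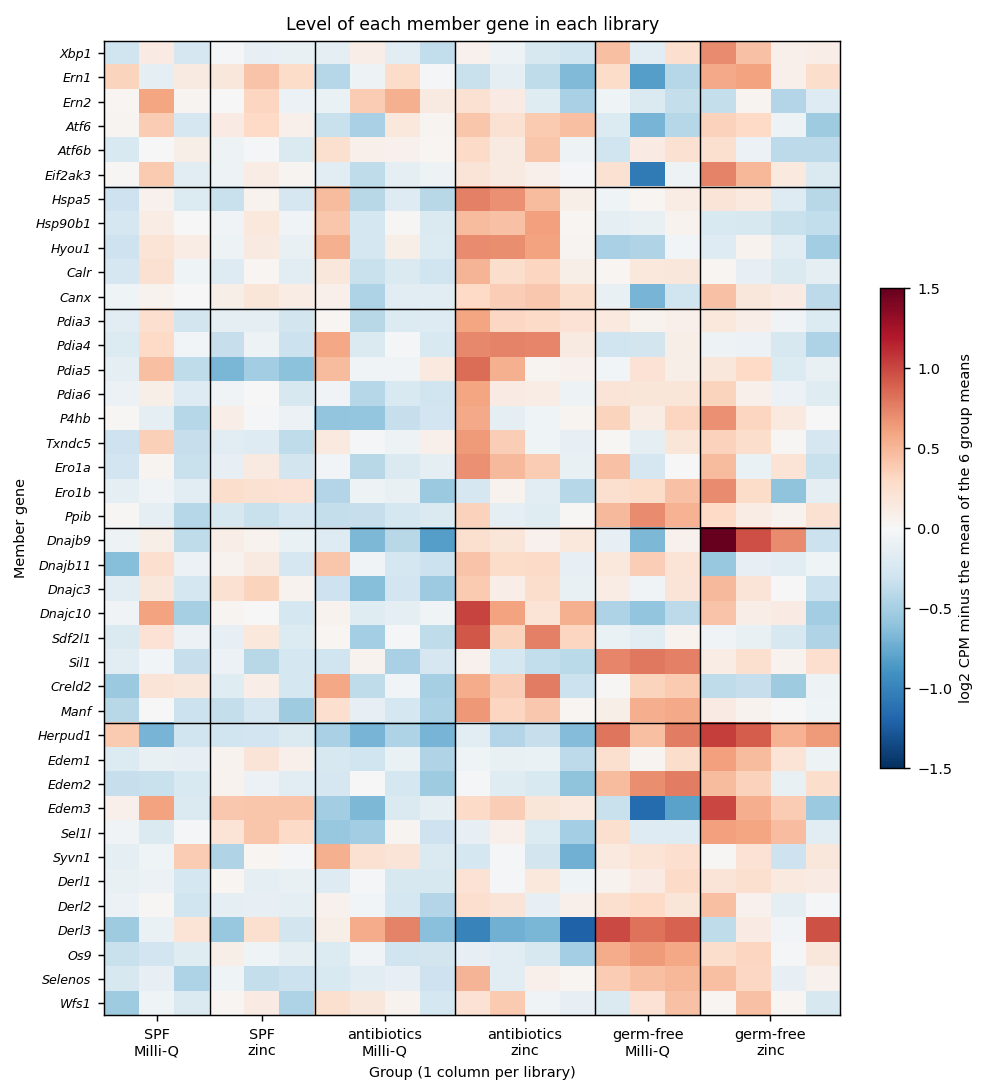
Level of each of the 40 members (rows, ordered by role) in each of the 21 libraries (columns, ordered by group and replicate), as log2 CPM minus the mean of the 6 group means; red is higher and blue lower. Chaperones and disulfide isomerases are mostly red in the 4 antibiotics zinc libraries, and Sil1, Herpud1, Edem2 and Os9 in the germ-free Milli-Q libraries.

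Xbp1 (ENSMUSG00000020484, GRCm39 chr11:5470606-5483027) encodes the transcription factor that IRE1 activates. Its CPM was 158.1, 210.8 and 163.1 in SPF Milli-Q, 191.1, 178.7 and 179.7 in SPF zinc, 174.9, 207.7, 172.2 and 150.6 in antibiotics Milli-Q, and 202.4, 184.5, 164.9 and 157.4 in antibiotics zinc. In germ-free mice it was 265.8, 174.4 and 231.1 on Milli-Q and 317, 263.1, 204.6 and 207.8 on zinc. The germ-free zinc libraries lay above all SPF zinc libraries, but no comparison of Xbp1 passed the threshold. The largest difference was 0.44 ± 0.17 (SE, log2, adjusted p = 0.114 by edgeR's quasi-likelihood test) for germ-free against SPF on zinc. Zinc moved Xbp1 by 0.05 ± 0.18 in SPF, 0.01 ± 0.15 after antibiotics and 0.15 ± 0.17 in germ-free mice (SE, log2).

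Ern1 (chr11:106283818-106378686) encodes IRE1α. It had 80.5, 58.1 and 70.3 CPM in SPF Milli-Q, 72.4, 86.3 and 77.3 in SPF zinc, 47.8, 60.6, 77.5 and 63.1 in antibiotics Milli-Q, and 50.7, 57.7, 49.1 and 40.5 in antibiotics zinc. Germ-free libraries had 77.4, 36.1 and 47.8 CPM on Milli-Q and 94.7, 97.4, 67.7 and 76.7 on zinc. All antibiotics zinc libraries were below all SPF zinc libraries, and the germ-free groups overlapped. Ern1 rose with zinc in germ-free mice by 0.64 ± 0.21 (SE, log2, adjusted p = 0.0452) and was 0.67 lower (log2 -0.67 ± 0.20, adjusted p = 0.0374) in antibiotics than in SPF mice on zinc, by edgeR's quasi-likelihood test. After antibiotics its zinc effect was -0.33 ± 0.18 (adjusted p = 0.203). The difference of the zinc effects, germ-free minus antibiotics, was 0.97 ± 0.28 with adjusted p = 0.0965 by edgeR and passed with DESeq2 (adjusted p = 0.0238).

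Ern2 (chr7:121769116-121785468) encodes IRE1β, which goblet and Paneth cells express. It had 85.1, 125.4 and 85.8 CPM in SPF Milli-Q, 83.7, 104.1 and 78.4 in SPF zinc, 77.8, 108.2, 120.6 and 91.8 in antibiotics Milli-Q, and 97.7, 90.6, 73.5 and 59.4 in antibiotics zinc. In germ-free mice it had 79.6, 71.5 and 65.2 CPM on Milli-Q and 64.9, 85.6, 61.5 and 72.8 on zinc. The 3 germ-free Milli-Q libraries were below the 3 SPF Milli-Q libraries, with -0.46 ± 0.20 (SE, log2, adjusted p = 0.0929 by edgeR's quasi-likelihood test), and no comparison passed the threshold. With a correction for GC content and length this difference was -0.75 and passed (adjusted p = 0.0107 by edgeR). Goblet markers together held 1.05 to 1.58% of counts in SPF Milli-Q and 1.06 to 1.21% in germ-free Milli-Q libraries. Spink4 had the most counts of them in both groups, and as CPM they did not move together. Clca1 was lower in germ-free Milli-Q libraries (5.35 to 17.6 against 28.1 to 43.0). Spink4 (11280 to 12170 against 4386 to 5969) and Tff3 (1814 to 2112 against 721.2 to 1278) were higher. Muc2, Fcgbp, Zg16, Agr2 and Spdef overlapped. The part of goblet cells in the Ern2 level was not tested.

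Atf6 (chr1:170532026-170696208), the gene of the membrane-bound transcription factor ATF6, had 38.2, 48.1 and 31.0 CPM in SPF Milli-Q, 40.3, 45.7 and 38.9 in SPF zinc, 29.4, 26.5, 41.3 and 38.0 in antibiotics Milli-Q and 49.4, 43.2, 48.4 and 50.5 in antibiotics zinc. Germ-free libraries had 32.0, 22.8 and 27.6 CPM on Milli-Q and 47.1, 45.7, 35.0 and 25.5 on zinc. It was the sensor that rose with zinc after antibiotics, where the lowest zinc library exceeded the highest Milli-Q library (0.50 ± 0.17, SE, log2, adjusted p = 0.0409 by edgeR's quasi-likelihood test). The rise in germ-free mice was of the same size but did not pass (0.47 ± 0.20, adjusted p = 0.114). Averaged over the contexts it was 0.35 ± 0.11 (adjusted p = 0.0244).

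Eif2ak3 (chr6:70821461-70882235) encodes PERK, the kinase that slows translation. Its CPM was 31.6, 41.2 and 28.1 in SPF Milli-Q, 29.7, 33.9 and 32.3 in SPF zinc, 27.8, 24.0, 28.3 and 29.8 in antibiotics Milli-Q and 35.7, 34.3, 33 and 30.6 in antibiotics zinc. In germ-free mice it was 36.7, 15 and 29.7 on Milli-Q and 52.3, 44.1, 34.6 and 27.0 on zinc. All antibiotics zinc libraries were above all antibiotics Milli-Q libraries by a small margin, and germ-free Milli-Q replicate 2 was the lowest of all 21. No comparison passed: zinc gave 0.28 ± 0.19 after antibiotics and 0.53 ± 0.22 in germ-free mice (SE, log2, adjusted p = 0.311 and 0.115 by edgeR's quasi-likelihood test). Atf6b, the paralogue of Atf6, ranged in its 7 comparisons from -0.18 to 0.31 (log2) and passed in none.

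Zinc after antibiotics changed 17 members on the TMM scale. The question is whether zinc water changes these genes when the microbiota has been depleted. Here 15 of 40 members rose (37.5%) and 2 fell (5%), by edgeR's quasi-likelihood test with Benjamini-Hochberg adjustment over all genes at 0.05. Of all 13070 genes, 10.2% rose and 11.5% fell. The median log2 change of the members was 0.30 and that of all genes 0.01, and 35 of the 40 members were above 0. The genes that rose were chaperones (Hspa5, Calr, Canx), disulfide isomerases and an oxidase (Pdia3, Pdia4, Pdia6, P4hb, Ero1a), co-chaperones (Dnajb9, Dnajc3, Dnajc10, Sdf2l1), the secreted Manf, the sensor Atf6 and the ERAD gene Edem3. Those that fell were the ERAD genes Syvn1 and Derl3.

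Hspa5 (ENSMUSG00000026864, chr2:34661982-34668880) encodes BiP, the Hsp70 of the ER. It had 742, 400.4, 467.7 and 401 CPM in antibiotics Milli-Q and 904.2, 860.3, 740.7 and 568.1 CPM in antibiotics zinc. The groups overlapped only through antibiotics Milli-Q replicate 1, which exceeded 2 of the zinc libraries. The rise was 0.61 ± 0.19 (SE, log2, adjusted p = 0.0236 by edgeR's quasi-likelihood test), or 1.53-fold. In SPF mice it had 428.9, 557.1 and 461.8 CPM on Milli-Q and 424.2, 554.2 and 447.1 on zinc, which is nearly the same set of values (log2 change -0.02). In germ-free mice it had 510, 545.2 and 578.4 CPM on Milli-Q and 610.4, 591.7, 464.7 and 401 on zinc, with overlapping groups.

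Sdf2l1 (chr16:16948002-16950252), which binds BiP together with the J-domain protein of Dnajb11, had 59.8, 40.9, 57.5 and 44.8 CPM in antibiotics Milli-Q and 111.8, 73.7, 98.7 and 73.3 CPM in antibiotics zinc. All 4 zinc libraries lay above all 4 Milli-Q libraries. This was the largest rise of a member here, 0.82 ± 0.15 (SE, log2, adjusted p = 0.00188 by edgeR's quasi-likelihood test), or 1.76-fold. It stayed past the threshold under every alternative processing and without any single library. The SPF libraries ranged from 50.4 to 68.1 CPM and the germ-free libraries from 42.8 to 60.4 CPM, on either water.

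Dnajc10 (chr2:80145787-80184941) had 86, 73.3, 76 and 80.3 CPM in antibiotics Milli-Q and 167.4, 126.5, 95.7 and 119.9 CPM in antibiotics zinc, again without overlap. The rise was 0.69 ± 0.20 (SE, log2, adjusted p = 0.0169 by edgeR's quasi-likelihood test). It had 80.2, 126.8 and 58.8 CPM in SPF Milli-Q and 85.6, 83.1 and 69.5 in SPF zinc. Germ-free libraries had 60.5, 55.2 and 63.2 CPM on Milli-Q and 111.5, 88.9, 90.5 and 58.1 on zinc, where 1 zinc library lay among the Milli-Q libraries.

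Of the other members that rose, Dnajc3, the BiP co-chaperone P58IPK, gave 0.61 ± 0.15 (adjusted p = 0.00834), Pdia3, which works on glycoproteins with calreticulin and calnexin, 0.54 ± 0.13 (adjusted p = 0.00672), and P4hb 0.58 ± 0.17 (SE, log2, adjusted p = 0.0176, all by edgeR's quasi-likelihood test). The disulfide oxidase Ero1a rose by 0.58, Pdia4 by 0.53, Calr by 0.46, Canx by 0.50, Pdia6 by 0.45 and Manf by 0.50 (log2). Every one of the 9 isomerases and oxidases had a change above 0, between 0.09 and 0.58, and every one of the 5 chaperones, between 0.39 and 0.61. Hsp90b1, the ER form of Hsp90, just missed the threshold with 0.39 (adjusted p = 0.0506), as did the BiP exchange factor Hyou1 with adjusted p = 0.0651.

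Among the 12 ERAD and ER membrane genes 1 rose, 2 fell and 9 had a change above 0, with a median of 0.12. Whether they differed from the chaperones was not tested. Derl3 (ENSMUSG00000009092, chr10:75729215-75731775), a derlin of the retrotranslocation complex, had 5.66, 7.81, 8.88 and 3.45 CPM in antibiotics Milli-Q and 2.66, 3.24, 3.3 and 2.29 CPM in antibiotics zinc. No library overlapped, and the fall was the largest of any member (-1.16 ± 0.29, SE, log2, adjusted p = 0.00771 by edgeR's quasi-likelihood test), or 0.448 of the Milli-Q level. It also held without any single library. Derl3 is also expressed by plasma cells, whose 8 listed markers together held 0.0045 to 0.00782% of counts in antibiotics Milli-Q and 0.00585 to 0.00783% in antibiotics zinc. Most of these counts were of Sdc1 (514 to 1116 counts) and Pou2af1 (6 to 58 counts), while Igha, Ighm, Igkc, Jchain and Mzb1 had at most 5 counts and Tnfrsf17 had 0 in each of these libraries. The part of plasma cells in the Derl3 level was not tested. Its paralogues Derl1 and Derl2 did not pass the threshold in any comparison.

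Syvn1 encodes HRD1, the ubiquitin ligase of ERAD, and Sel1l its partner. Syvn1 had 95.5, 77.2, 75.2 and 56.6 CPM in antibiotics Milli-Q and 54.9, 64.9, 54.2 and 40 CPM in antibiotics zinc, which overlapped, and fell by 0.51 (log2 -0.51 ± 0.17, SE, adjusted p = 0.033 by edgeR's quasi-likelihood test). In SPF mice it had 59.8, 62.8 and 86 CPM on Milli-Q and 48, 66.9 and 64.4 on zinc. In germ-free mice it had 72.9, 75.8 and 78.5 CPM on Milli-Q and 66.6, 76.2, 53.1 and 74.2 on zinc. Syvn1 shares its locus with Mrpl49 on the opposite strand, and whether the counts used the strand is not given.

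Members with and without an ERSE or ERSE-II both rose in this comparison. Of 13 with an element 6 rose and 2 fell, with a median of 0.45, and of 27 without one 9 rose and none fell, with a median of 0.26. Both genes that fell carry an ERSE. In the other 6 comparisons of 2 groups the median of members with an element was between -0.17 and 0.30.

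**Figure D4:**
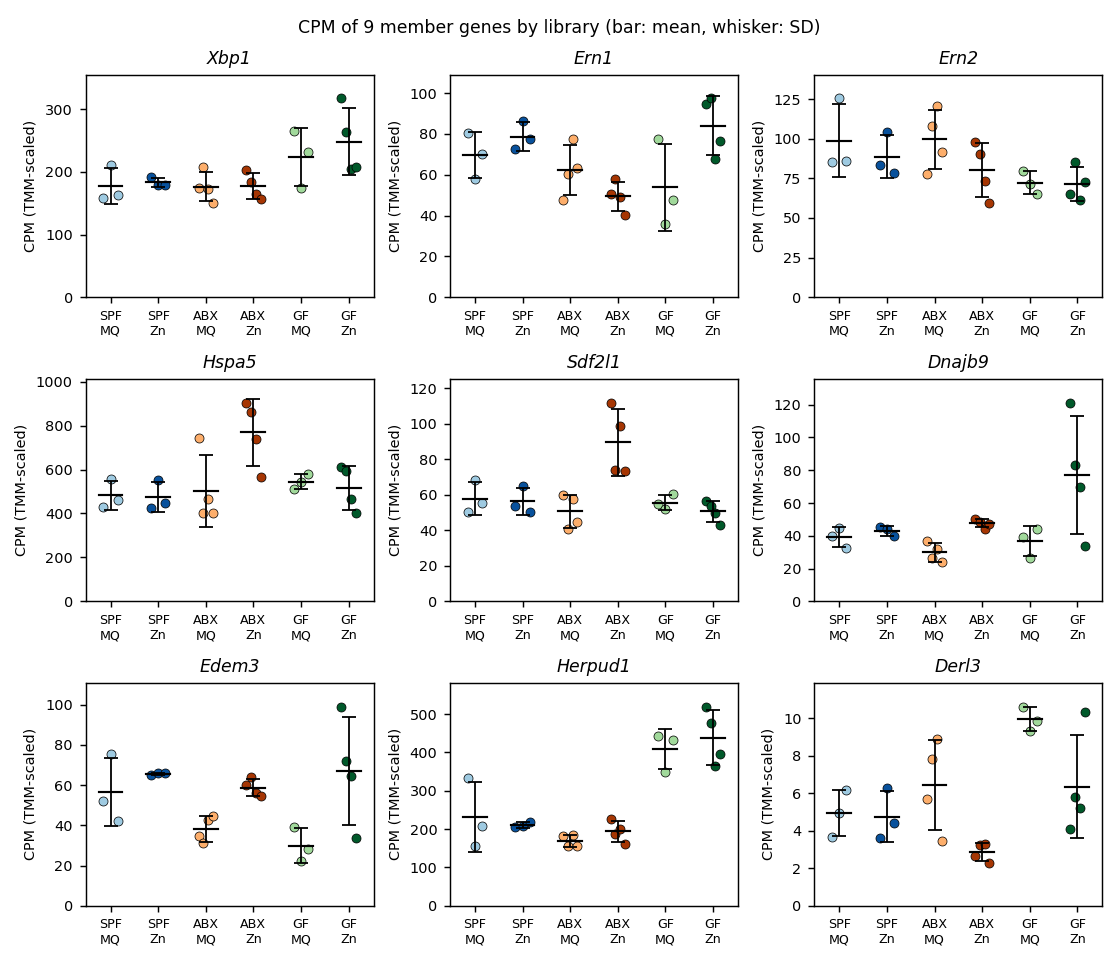
CPM (TMM-scaled) of 9 member genes in every library, by group (MQ: Milli-Q water, Zn: zinc water, ABX: antibiotics, GF: germ-free); points are libraries, bars the mean and whiskers the SD of 3 or 4 libraries. Sdf2l1 in antibiotics zinc (73.3 to 111.8) lies above every other group, Herpud1 is high in both germ-free groups (348 to 518.8), and Derl3 in germ-free Milli-Q (9.33 to 10.6) is above every library but 1 of germ-free zinc.

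Most calls of this comparison rested on thin margins. Without antibiotics Milli-Q replicate 2 the counts were 3 risen and 1 fallen, without antibiotics zinc replicate 1 they were 4 and 1, and without antibiotics Milli-Q replicate 3 they were 9 and 1. Sdf2l1, Dnajc3, Pdia3 and Derl3 kept their call without any single library. When scaled by library totals alone, 1 member rose and 2 fell around a median of all genes of -0.15. Transcripts poor in GC rose here as a class, with medians of 0.26 in the lowest and -0.25 in the highest quartile of GC content over all genes. The members that rose had a median GC of 45.7% and those that fell 57.5%, against 50.5% for all members. After a correction for GC content and length, 12 members rose and 1 fell, and Hspa5 (adjusted p = 0.0785), Pdia4 (0.0667), Canx (0.0937), Ero1a (0.109), Dnajb9 (0.19), Edem3 (0.0684) and Syvn1 (0.269) were no longer called by edgeR's quasi-likelihood test. The shares of all genes called with library totals or this correction are not given, so these counts cannot be set against them. Markers of other immune cells held 0.0313 to 0.0394% of counts in antibiotics Milli-Q and 0.00123 to 0.0233% in antibiotics zinc libraries, and their part in these results was not tested. The antibiotics Milli-Q libraries also had counts on more genes, with 17468 to 18072 against 15870 to 16558 in antibiotics zinc. Their total counts overlapped, and the part of this difference in the results was not tested.

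Zinc in SPF mice moved none of the members past the threshold. Of all 13070 genes, 0.0612% rose and 0.0765% fell (8 and 10 genes). At an unadjusted p under 0.05 there were 2 members and 665 genes by edgeR, and DESeq2 called 0 members. Without SPF zinc replicate 1 there were also 0 by edgeR. The member with the smallest unadjusted p was Pdia5, a disulfide isomerase that can activate ATF6. It had 47.6, 72 and 40.3 CPM in SPF Milli-Q and 32.7, 36.7 and 34.3 CPM in SPF zinc, so every zinc library was the lower (-0.63 ± 0.21, SE, log2, adjusted p = 0.531 by edgeR's quasi-likelihood test). The median change of the members was -0.02, the same as over all genes. Enterocyte markers held 0.145 to 0.217% of counts in SPF zinc and 0.0756 to 0.134% in SPF Milli-Q libraries.

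Zinc in germ-free mice raised Ern1, Dnajb9 and Edem3 and lowered Sil1 and Os9. That is 7.5% of the members risen and 5% fallen, by edgeR's quasi-likelihood test, near the 5.89% and 5.47% of all genes. The median change of the members was -0.07 and that of all genes -0.02. The chaperones as a group did not rise here: their 5 changes lay between -0.24 and 0.46, with none past the threshold, and 7 of 9 isomerases and oxidases were below 0.

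Dnajb9 (ENSMUSG00000014905, chr12:44252341-44257171) encodes ERdj4, a J-domain co-chaperone that holds IRE1 in check and is a well-known target of XBP1. It had 39, 26.6 and 44.3 CPM in germ-free Milli-Q and 121.2, 83.3, 69.7 and 34 CPM in germ-free zinc. The first 3 zinc libraries were above all Milli-Q libraries and the fourth was among them, and the rise was 1.06 ± 0.26 (SE, log2, adjusted p = 0.0172 by edgeR's quasi-likelihood test). After antibiotics it had 37.1, 26.7, 31.8 and 24 CPM on Milli-Q and 50.2, 48.2, 44.3 and 47.5 on zinc, without overlap (0.67 ± 0.23, adjusted p = 0.0425 by edgeR). In SPF mice it had 40.2, 45 and 32.5 CPM on Milli-Q and 45.5, 44.1 and 39.7 on zinc. Averaged over the contexts it rose by 0.62 ± 0.15 (adjusted p = 0.00633 by edgeR), also without any single library.

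Edem3 (ENSMUSG00000043019, chr1:151631057-151698085) belongs to the mannosidase-like proteins that mark misfolded glycoproteins for ERAD. It had 39.1, 22.2 and 28.3 CPM in germ-free Milli-Q and 99, 72, 64.4 and 33.6 CPM in germ-free zinc. As with Dnajb9, germ-free zinc replicate 4 lay among the Milli-Q libraries and the other 3 above them (1.16 ± 0.26, SE, log2, adjusted p = 0.0124 by edgeR's quasi-likelihood test). After antibiotics it had 34.5, 31, 42.7 and 44.7 CPM on Milli-Q and 60.3, 63.9, 56 and 54.8 on zinc, without overlap (0.62 ± 0.22, adjusted p = 0.0486 by edgeR). In SPF mice it had 52.3, 75.4 and 42.4 CPM on Milli-Q and 65.2, 66.2 and 65.9 on zinc. Its SPF effect was 0.21, and the effect averaged over the contexts 0.66 ± 0.14 (adjusted p = 0.00385 by edgeR).

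Sil1 is a nucleotide exchange factor of BiP. It had 61.9, 64.8 and 63 CPM in germ-free Milli-Q and 40.3, 44.1, 38.7 and 44.5 CPM in germ-free zinc, without overlap (-0.59 ± 0.14, SE, log2, adjusted p = 0.013 by edgeR's quasi-likelihood test). All other groups were lower than germ-free Milli-Q too, with 33.5, 36.2 and 29.3 CPM in SPF Milli-Q, 35.2, 28 and 31 in SPF zinc, 30.3, 38.6, 26.7 and 31.3 in antibiotics Milli-Q and 39, 31.2, 28.8 and 28.3 in antibiotics zinc. Os9, an ERAD lectin, had 247.2, 261.4 and 252.7 CPM in germ-free Milli-Q and 202.2, 210.8, 165.3 and 190.1 CPM in germ-free zinc, also without overlap (-0.40 ± 0.12, adjusted p = 0.033 by edgeR). Its SPF libraries had 133.6, 138.2 and 148.4 CPM on Milli-Q and 179.4, 160.8 and 153 on zinc, and its antibiotics libraries 146.7, 162.5, 137.4 and 138.8 on Milli-Q and 155.2, 150.2, 142.2 and 118.1 on zinc. Both genes were thus at their highest in germ-free mice on Milli-Q water.

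No call in germ-free mice held against every left-out library. Without germ-free Milli-Q replicate 2 none of the 5 remained, and none were made when only the 2 germ-free groups were fitted. Without germ-free zinc replicate 4 there were 12 calls, 8 risen and 4 fallen, without germ-free Milli-Q replicate 1 there were 8, without germ-free Milli-Q replicate 3 there were 3, and without germ-free zinc replicate 1 or 3 there were 2. Transcripts poor in GC rose here too, with medians of 0.26 in the lowest and -0.31 in the highest GC quartile over all genes. With the correction for GC content and length, Dnajb9 and Edem3 were the 2 calls left.

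Averaged over the 3 contexts, zinc raised 7 members (17.5%) and lowered 3 (7.5%), where 10.7% of all genes rose and 11.2% fell. The members that rose were Edem3, Dnajb9, Canx, Atf6, Dnajc10, Sel1l and Dnajc3, and those that fell were Derl3, Syvn1 and Sil1 (edgeR's quasi-likelihood test). The median change was 0.07. Edem3, Dnajb9, Canx and Derl3 kept their call without any single library, but with the correction for GC content and length only Edem3 (adjusted p = 0.011) and Dnajb9 (0.0286) of the 10 calls were left. Canx (0.0748), Derl3 (0.117), Sel1l (0.0746), Atf6 (0.148), Dnajc10 (0.181), Dnajc3 (0.329), Syvn1 (0.614) and Sil1 (0.684) were then not called by edgeR's quasi-likelihood test, and P4hb (0.0232) and Sdf2l1 (0.0237) were.

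**Figure D5:**
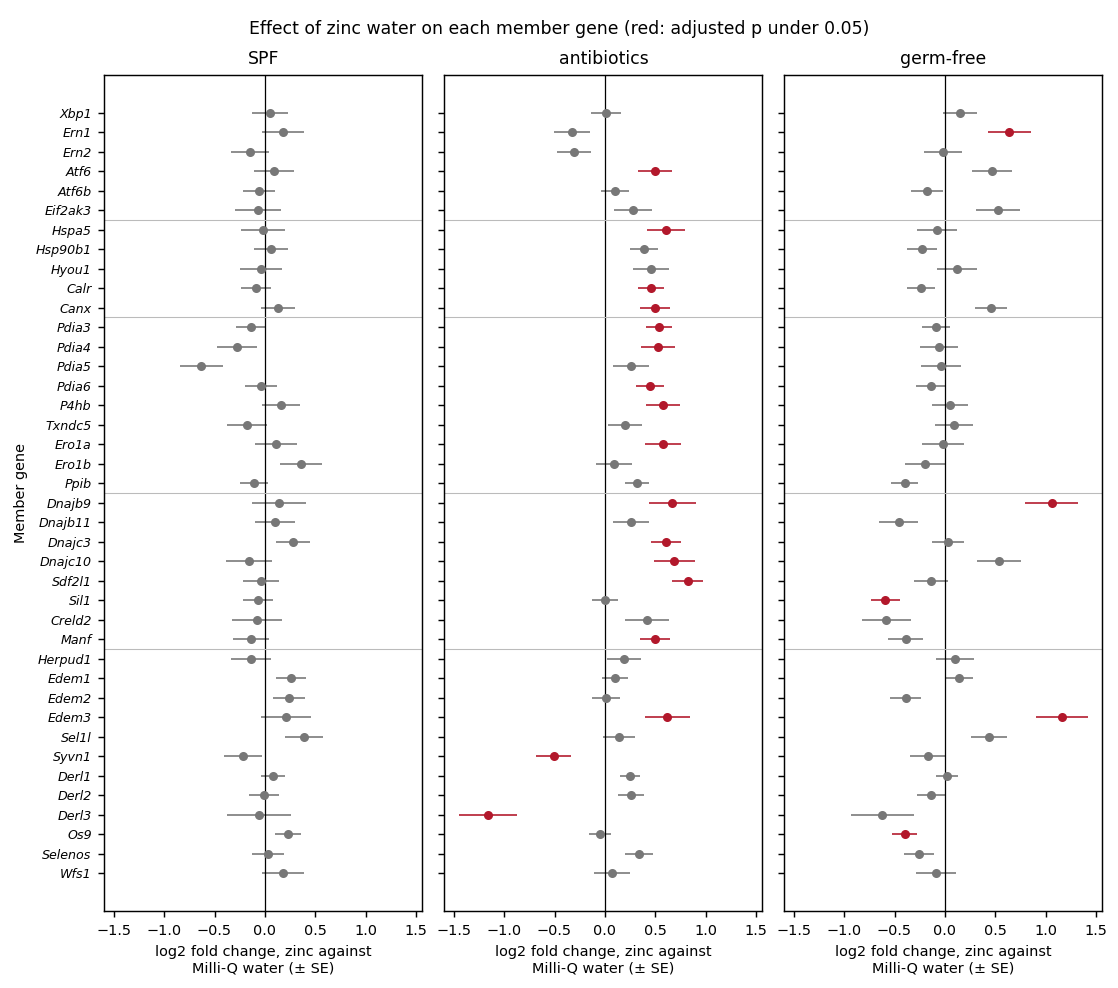
Log2 fold change of each of the 40 members with zinc against Milli-Q water in SPF, antibiotics and germ-free mice, with its standard error as a line; red points have an adjusted p under 0.05 in edgeR's quasi-likelihood test, and members are ordered by role. There are 0 red points in SPF, 17 after antibiotics (15 to the right) and 5 in germ-free mice (3 to the right).

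Whether the zinc effect differed between the contexts was tested directly. By edgeR's quasi-likelihood test none of the 40 members passed for antibiotics minus SPF, germ-free minus SPF or germ-free minus antibiotics. The same tests called 0%, 0% and 0.207% of all genes. At an unadjusted p under 0.05 there were 11, 6 and 19 members in these tests, and 2418, 1741 and 2140 of all genes. The median difference of the members was 0.34 for antibiotics minus SPF, -0.10 for germ-free minus SPF and -0.32 for germ-free minus antibiotics, with medians over all genes between 0.00 and 0.01. DESeq2 called 2 members for antibiotics minus SPF, Sdf2l1 (0.83, adjusted p = 0.044) and Pdia3 (0.67, adjusted p = 0.0393). For germ-free minus antibiotics it called 6, which were Sdf2l1 (-0.92, adjusted p = 0.0127), Ppib (-0.69, adjusted p = 0.012), Manf (-0.85), Calr (-0.67), Pdia3 (-0.61) and, in the other direction, Ern1 (1.01). The contexts also share no libraries with each other, so that each zinc effect is measured on its own mice.

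Antibiotics against SPF on Milli-Q water moved none of the members past the threshold. Of all genes, 0.0459% were higher and 0.153% lower. At an unadjusted p under 0.05 there were 3 members and 1062 genes by edgeR's quasi-likelihood test, and DESeq2 called 0 members. The member with the smallest unadjusted p was Herpud1, which encodes an ER membrane protein that recruits ERAD components. It had 333.7, 156.8 and 207 CPM in SPF Milli-Q and 181.7, 156.2, 184.6 and 156.3 CPM in antibiotics Milli-Q, with overlap (-0.45 ± 0.18, SE, log2, adjusted p = 0.513 by edgeR). The median change of the members was -0.03.

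On zinc water, antibiotics and SPF mice differed in 8 members. Hspa5, Pdia3, Pdia4, Pdia5, Dnajc10, Sdf2l1 and Manf were higher after antibiotics (17.5% of members against 4.76% of all genes) and Ern1 was lower (2.5% against 4.21%), by edgeR's quasi-likelihood test. The median change of the members was 0.21. This comparison shares its antibiotics zinc libraries with that of zinc after antibiotics. Every antibiotics library lay above every SPF library for 12 members and below for 6, as for 14.5% and 13.2% of all genes, and the 8 called members are among these.

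Pdia5 had 93.8, 76, 54 and 54.9 CPM in antibiotics zinc against 32.7, 36.7 and 34.3 CPM in SPF zinc, a difference of 1.01 ± 0.20 (SE, log2, adjusted p = 0.00527 by edgeR's quasi-likelihood test), or 2.02-fold. In antibiotics Milli-Q it had 73, 50.7, 50.8 and 58.3 CPM, and in germ-free mice 50.9, 61.1 and 56 on Milli-Q and 58.9, 64.7, 45.5 and 48.7 on zinc. The SPF zinc libraries were thus the lowest of all 21. Pdia4, also known as ERp72, had 127.4, 129.5, 128.2 and 85.1 CPM in antibiotics zinc against 60.7, 73.2 and 61.6 CPM in SPF zinc (0.85 ± 0.19, adjusted p = 0.00912 by edgeR). Its other groups had 66.9, 94.9 and 75 CPM in SPF Milli-Q, 115.6, 66.6, 76.4 and 66.2 in antibiotics Milli-Q, 62.7, 63.9 and 81.9 in germ-free Milli-Q and 73.2, 72.5, 65.6 and 56 in germ-free zinc.

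Pdia4 and Pdia5 kept their call without any single library. Without SPF zinc replicate 1, the library with the Xist counts, 3 members were called, without replicate 2 of that group 4, without replicate 3 of that group 2, and without antibiotics zinc replicate 1 there were 3. With the correction for GC content and length, Ern1 (adjusted p = 0.0636) and Sdf2l1 (0.0759) were not called by edgeR's quasi-likelihood test. Enterocyte markers held 0.145 to 0.217% of counts in SPF zinc and 0.0711 to 0.104% in antibiotics zinc libraries, and their part in these differences was not tested.

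Germ-free against SPF on Milli-Q water raised 8 members (20%, against 12.7% of all genes) and lowered 1 (2.5%, against 11.6%), by edgeR's quasi-likelihood test. Of these 8, 5 belong to ERAD and the ER membrane (Herpud1, Edem2, Derl3, Os9 and Selenos), and the others were Ppib, Sil1 and Manf. Edem3 was the gene that was lower. The median change of the members was 0.17, and 11 of the 12 ERAD and ER membrane genes were above 0, with a median of 0.40. Of the 5 chaperones none passed, with changes between -0.35 and 0.17.

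Edem2, a paralogue of Edem3, had 114.7, 116.5 and 124.9 CPM in SPF Milli-Q and 203.4, 236.5 and 248.3 CPM in germ-free Milli-Q (0.95 ± 0.16, SE, log2, adjusted p = 0.000257 by edgeR's quasi-likelihood test). It had 151.3, 137.2 and 131.3 CPM in SPF zinc, 123, 145.9, 122.2 and 101.5 in antibiotics Milli-Q, 143.6, 129, 125.3 and 96.5 in antibiotics zinc and 203.5, 185.6, 135.8 and 175.5 in germ-free zinc. The 3 germ-free Milli-Q libraries of Edem2 were above all SPF and antibiotics libraries. Edem3 went the opposite way, with 52.3, 75.4 and 42.4 CPM in SPF Milli-Q and 39.1, 22.2 and 28.3 CPM in germ-free Milli-Q, every germ-free library being the lower (-0.92 ± 0.26, adjusted p = 0.0142 by edgeR).

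Derl3 had 3.68, 4.95 and 6.14 CPM in SPF Milli-Q and 10.6, 9.33 and 9.85 CPM in germ-free Milli-Q, without overlap (1.00 ± 0.32, SE, log2, adjusted p = 0.0268 by edgeR's quasi-likelihood test). It had 3.59, 6.26 and 4.39 CPM in SPF zinc and 4.07, 5.79, 5.19 and 10.3 CPM in germ-free zinc. Its call was lost without any 1 of 5 of the 6 libraries compared. Os9 gave 0.86 ± 0.13 (adjusted p = 9.2e-05), Sil1 0.94 ± 0.15 (adjusted p = 0.000131), Selenos, a selenoprotein of the ERAD complex, 0.71 ± 0.16 (adjusted p = 0.00282), and the ER stress-induced secreted protein Manf 0.65 ± 0.18 (SE, log2, adjusted p = 0.011, all by edgeR).

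Herpud1 (ENSMUSG00000031770, chr8:95113022-95123141) exceeded its SPF level in germ-free mice on both waters. It had 442.9, 348 and 433.4 CPM in germ-free Milli-Q against 333.7, 156.8 and 207 in SPF Milli-Q (0.81 ± 0.20, SE, log2, adjusted p = 0.00524 by edgeR's quasi-likelihood test). On zinc it had 518.8, 475.4, 363.4 and 395.1 CPM in germ-free against 205.7, 207.5 and 218.1 in SPF mice (1.06 ± 0.19, adjusted p = 0.00473 by edgeR), or 2.08-fold, which held without any single library. The antibiotics libraries had 156.2 to 226.6 CPM on either water, so all 7 germ-free libraries of Herpud1 lay above the other 14.

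Ppib was the other member called on both waters. It had 473.1, 552.4 and 483.8 CPM in germ-free Milli-Q against 342.6, 307.3 and 250.9 in SPF Milli-Q (0.74 ± 0.14, SE, log2, adjusted p = 0.000859 by edgeR's quasi-likelihood test). On zinc it had 416.6, 364.1, 350.8 and 396.1 CPM in germ-free against 284.9, 266.9 and 282.3 in SPF mice (0.46 ± 0.14, adjusted p = 0.0472 by edgeR, and 0.174 with the correction for GC content and length). After antibiotics it had 263.3, 264.8, 281.2 and 290.2 CPM on Milli-Q and 427.9, 304.3, 296.4 and 342.4 on zinc. Ppib overlaps Snx22 on the opposite strand.

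On zinc water these 2 genes were the only members past the threshold of germ-free against SPF: 5% higher and 0% lower, against 3.47% and 2.38% of all genes. The median change of the members was 0.16, and all 12 ERAD and ER membrane genes were above 0, between 0.02 and 1.06. Without SPF zinc replicate 1 or 2 or 3, or germ-free zinc replicate 1 or 2, 1 member was called, and without germ-free zinc replicate 3 or 4 there were 4.

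The direction of the germ-free comparisons depended on the scale. When scaled by library totals alone, the median of all genes fell by 0.99 on Milli-Q and by 0.61 on zinc (log2), and 0 members were higher and 31 lower on Milli-Q, and 0 higher and 20 lower on zinc. The share of all genes called on that scale is not given, so these counts are not a result about the members. Relative to the shift of all genes the members were still slightly above the typical gene, with medians of -0.80 and -0.47. On that scale Edem2, Sil1, Os9, Herpud1 and Ppib were at -0.01, -0.02, -0.11, -0.11 and -0.21 on Milli-Q, close to no change per total count, while Hspa5 was at -0.80. Stem and cycling markers held 0.149 to 0.211% of counts in germ-free Milli-Q and 0.423 to 0.6% in SPF Milli-Q libraries. Over all libraries Olfm4 had 932099 counts and the next gene of this list, Smoc2, had 44440, so the sum mostly follows Olfm4. Tuft cell markers (0.00637 to 0.00759% against 0.0174 to 0.0262%), enteroendocrine markers (0.00373 to 0.00507% against 0.0137 to 0.0279%) and plasma cell markers (0.00236 to 0.00284% against 0.00515 to 0.0082%) were also lower in every germ-free Milli-Q library. Most of the plasma cell marker counts were of Sdc1, with 228 to 373 counts in germ-free Milli-Q and 651 to 1112 in SPF Milli-Q libraries. Igha, Ighm, Igkc, Jchain and Mzb1 had at most 6 counts in any of these libraries, so the sum says little about plasma cells. All these marker shares are of all counts, Defa counts included, and the part of these cell types in these results was not tested. With the correction for GC content and length, 11 members were higher and 1 (Ern2) lower on Milli-Q. Edem1, Derl1, Derl2, Ero1a, Ero1b and Dnajc3 passed with this correction and not without it, while Ppib (adjusted p = 0.0581), Manf (0.0564), Derl3 (0.215) and Edem3 (0.119) were no longer called by edgeR's quasi-likelihood test. The share of all genes called with this correction is also not given.

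Over the 7 comparisons of 2 groups, 25 of 40 members passed the threshold at least once, as did 47.3% of all genes, and 15 did not in the uncorrected fit. These were Xbp1, Ern2, Atf6b, Eif2ak3, Hsp90b1, Hyou1, Txndc5, Ero1b, Dnajb11, Creld2, Edem1, Sel1l, Derl1, Derl2 and Wfs1. Their changes ranged from -0.58 (Creld2) to 0.55 (Hyou1) on the log2 scale, and their smallest adjusted p was 0.0506 (Hsp90b1, edgeR's quasi-likelihood test). Creld2, a secreted ER stress protein, ranged from 26.6 to 67.0 CPM over all libraries, and Wfs1, the wolframin gene, from 10.2 to 20.1 CPM. Dnajb9 and Edem3 were the members called for zinc both after antibiotics and in germ-free mice, which are separate sets of libraries, and both rose in each. After antibiotics each call was lost in 7 of 8 fits that left out a library. With the GC and length correction neither was called after antibiotics (adjusted p = 0.19 for Dnajb9 and 0.0684 for Edem3, edgeR's quasi-likelihood test). Both were still called in germ-free mice with it (0.0466 and 0.0352 by the same test).

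Of the other 64 genes of ER folding and degradation tested, 9 rose and 2 fell with zinc after antibiotics, with the selenoprotein gene Selenof at the top (0.83, adjusted p = 0.0109) and Crebzf at the bottom (-0.87, adjusted p = 0.00242, edgeR's quasi-likelihood test). Of all 13070 genes, 10.2% rose and 11.5% fell there. In germ-free mice zinc raised 2, led by the ERAD ligase gene Marchf6 (0.95), and lowered 6, led by the prolyl isomerase gene Fkbp2 (-0.92), where 5.89% of all genes rose and 5.47% fell. Zinc in SPF mice moved none of them past the threshold. Germ-free against SPF raised 15 and lowered 6 on Milli-Q, from Selenom (1.57) to the goblet cell isomerase gene Agr2 (-1.06), and raised 4 and lowered 2 on zinc, from Selenom (1.01) to the pancreatic-type isomerase gene Pdia2 (-1.11). The shares of all genes were 12.7% higher and 11.6% lower on Milli-Q, and 3.47% and 2.38% on zinc. Antibiotics against SPF lowered Pdia2 on Milli-Q (-2.34), and on zinc it raised Erlin1 (0.72) and lowered 3 genes, led by Creb3l3 (-3.63). The shares of all genes were 0.0459% higher and 0.153% lower on Milli-Q, and 4.76% and 4.21% on zinc. Whether this list differed from all genes was not tested.

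A list of 7 PERK-arm targets was set beside the members. Germ-free mice on Milli-Q water had 4 of them higher than SPF mice: Chac1 (3.24), Trib3 (2.67), Asns (1.30) and Atf4 (0.96, adjusted p = 0.000282 by edgeR's quasi-likelihood test). On zinc water Trib3 (2.05) and Asns (0.65) were higher. Of all genes, 12.7% were higher on Milli-Q and 3.47% on zinc. The name of the list does not show that PERK acted here, which was not tested. Zinc raised Asns after antibiotics (0.70) and lowered Atf4 in germ-free mice (-0.67). Eif2ak3 itself passed the threshold in none of these comparisons, but its mRNA level is not a measure of PERK activity.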

How the data were processed

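Paneth cells were sorted by FACS, total RNA was isolated with a column kit, and stranded mRNA libraries were made, per the labels. The authors deposited 1 table of raw counts per Ensembl gene for 21 libraries, with no normalisation. Their processing notes name FastQC 0.12.0, STAR 2.7.0a, DESeq2 and mm39. Which program counted the reads, whether it used the strand and what it did with reads shared between genes is stated nowhere in the labels or methods read here. Overlapping genes and the near-identical Defa genes therefore carry an uncertain split, and the Defa total is uncertain too. Every column matched a sample by name. Symbols came from GENCODE M39 on GRCm39 for 54749 of 55414 identifiers, and the 665 others held 0.0164% of counts.

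Counts were tested with edgeR 4.0.16 (R 4.3.3) by quasi-likelihood F-tests in 1 fit of all libraries, with a coefficient for each group and TMM factors, on the 13070 genes that filterByExpr retained. Benjamini-Hochberg adjustment ran over all genes of each comparison, with a threshold of 0.05. Fold changes are log2 with standard errors. CPM per kb used the canonical transcript. The Defa slope used the logit of the share in units of its SD (0.305). Upstream windows were read from GRCm39. Figures were drawn with matplotlib 3.10.9.

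The members and lists were chosen with earlier results of these data known. Values in every library were given for Xbp1, Ern1, Ern2, Atf6, Eif2ak3, Hspa5 and Dnajb9, and in each comparison of 2 groups for the 2 members that rose and the 2 that fell most among those past the threshold, or else for the member with the smallest p. The alternatives were DESeq2 1.42.0, its size factors, library totals, TMM factors without Defa genes, no filter or a filter of 10 counts in 10 libraries, a fit of the compared groups alone, a block by replicate number, leaving out each library and, chosen after seeing the data, a correction for GC content and length (lowess span 0.3). On simulated counts for zinc after antibiotics (12888 genes, of which 200 were changed 2-fold) 78% of the genes that had been changed were called, and false ones made up 3.7% of the calls. In the data, 10.2% of all genes rose and 11.5% fell there, and the largest rise of a member was 0.82 (log2). The simulated recovery therefore does not describe the members, and none is given here for the other comparisons.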

Additional observations from a re-analysis of the deposited data

Results flagged for a closer look

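A pair of values stood far from the rest of their group. Pdia4 had 85.1 CPM in antibiotics zinc replicate 4, against 127.4 to 129.5 CPM in the other 3, and Edem1 had 102.2 CPM in the same library, against 125.0 to 128.5 CPM. The gap exceeded Dixon's 95% critical value for groups of 4 in these 2 of 120 groups of values examined, and chance flags about 1 in 20 groups.

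Ppib and Os9 had zinc changes of opposite sign in different contexts, by library ranges. For Ppib every zinc library was above every Milli-Q library after antibiotics (0.32, log2) and below it in germ-free mice (-0.40). Neither change passed the threshold (adjusted p = 0.0677 and 0.0547 by edgeR's quasi-likelihood test). For Os9 every zinc library was above every Milli-Q library in SPF mice (0.23) and below it in germ-free mice (-0.40). Only the germ-free fall of Os9 passed (adjusted p = 0.997 in SPF and 0.033 in germ-free mice, same test). Of all genes, 13.9% lay wholly above after antibiotics, 6.7% above in SPF mice and 8.78% below in germ-free mice. By this comparison of library ranges the difference was not tested. In edgeR's quasi-likelihood test of the difference itself, Ppib gave -0.72 ± 0.18 for germ-free minus antibiotics (SE, adjusted p = 0.0721) and Os9 -0.63 ± 0.17 for germ-free minus SPF (SE, adjusted p = 0.215), neither past the threshold.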

How the results depend on the processing

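Members called changed with the processing as follows. With library totals they were 3 for zinc after antibiotics, 3 in germ-free mice, 3 averaged over the contexts, 31 for germ-free against SPF on Milli-Q, 20 on zinc and 1 for the Defa slope. With no filter on low counts they were 1 for zinc in SPF, 10 in germ-free mice, 1 for antibiotics against SPF on Milli-Q and, for differences of the zinc effect, 4 (antibiotics minus SPF), 2 (germ-free minus SPF) and 4 (germ-free minus antibiotics). DESeq2 gave 4 for germ-free against SPF on zinc and 2 and 6 for the differences of antibiotics minus SPF and germ-free minus antibiotics. The GC and length correction gave 2 for zinc in germ-free mice and 4 averaged. Germ-free against SPF on zinc fell to 1 with DESeq2-type size factors, TMM without Defa genes, the stricter filter or only the groups compared, and zinc in germ-free mice to 0 with the last. The slope with no group terms gave 14. The causes were not tested. The shares of all genes called under each alternative, left-out libraries included, are not given. These counts therefore describe the processing and are not results about the members.

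Leaving out a library gave 4 to 17 for zinc after antibiotics, 0 to 12 in germ-free mice, 4 to 12 averaged, 6 to 11 for germ-free against SPF on Milli-Q, 2 to 7 for antibiotics against SPF on zinc, 1 to 4 for germ-free against SPF on zinc, 0 to 3 for germ-free minus SPF and 0 to 4 for germ-free minus antibiotics. The averaged count was lowest (4) without germ-free Milli-Q replicate 2, followed by 5 when SPF Milli-Q replicate 3 was left out and 6 when germ-free Milli-Q replicate 3 was. For germ-free minus SPF, 3 members passed once germ-free zinc replicate 4 was left out. For germ-free minus antibiotics, 4 passed when either antibiotics Milli-Q replicate 1 or germ-free Milli-Q replicate 1 was left out, and 2 when germ-free zinc replicate 4 was.

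Of the 41 calls of single members, DESeq2 kept 41, TMM without Defa genes 40, either filter 39, DESeq2-type size factors 37, only the groups compared 35 and the GC and length correction 24. Library totals kept 14 and turned 8. For germ-free against SPF on Milli-Q these gave Edem2 -0.01, Sil1 -0.02, Herpud1 -0.11, Os9 -0.11, Ppib -0.21, Selenos -0.25 and Manf -0.33, and on zinc Ppib -0.16. Among values not called, Hspa5 (-0.80) and Xbp1 (-0.64) on Milli-Q and Ern1 (-0.55) on zinc passed in the other direction with library totals, around medians of -0.99 and -0.61 over all genes.

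The replicate numbers were not shown to pair the libraries: over 22 same-numbered pairs the correlation of deviations was -0.166 to 0.229, over 0.1 in 4. These are the numbers in the sample titles. In germ-free Milli-Q, titles 2 and 3 belong to columns numbered 3 and 4, and by column numbers the correlation was -0.101 to 0.229 over 21 pairs, over 0.1 in 4. With the replicate block by title number the calls were 16 for zinc after antibiotics, 6 in germ-free mice, 8 averaged, 10 for germ-free against SPF on Milli-Q, 8 for antibiotics against SPF and 3 for germ-free against SPF on zinc, and 36 of the 41 calls were kept. A block by column number, chosen after seeing the data, gave 15, 4, 10, 12, 7 and 3 in the same order and also kept 36. The 27 pairs of libraries within groups all differed beyond sampling noise. Groups of 3 or 4 and Derl3 levels near 3 CPM limit what these tests can resolve.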
